A study of Triticum dicoccoides with 12 samples.

Results

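Roots of the wild emmer wheat genotypes Y12-3 and A24-39 were compared while both were well-watered. The comparison held 6 of the study's 12 arrays, which were the 3 labelled Y12-3 well-watered control and the 3 labelled A24-39 well-watered control. It covered the 61179 probe sets whose name does not begin with AFFX. Signal present in 1 genotype alone was kept apart from differences of degree between signals that both genotypes gave. The comparison addressed how the roots of these genotypes differed before any water was withheld.

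Total RNA of roots was hybridised to the wheat array of Affymetrix, on which every sample has its own array and 1 colour. All plants were wild emmer wheat (Triticum turgidum subsp. dicoccoides), were 4 weeks old and grew in a controlled greenhouse. The 4 groups were well-watered Y12-3, well-watered A24-39, and the same genotypes after 7 days without water from the 4 leaf stage, with 3 arrays each. The arrays are labelled as biological replicates. Whether the RNA of an array came from 1 plant or from several is not stated in the labels, so p-values measure the spread between these arrays. In bulk root RNA, fewer cells of a type and less RNA per cell cannot be told apart.

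Wild emmer is the tetraploid wild ancestor of cultivated wheats, and lines from different sites can differ widely in sequence as well as in gene activity. Y12-3 and A24-39 are known from work on drought in this species, the former as a resistant and the latter as a susceptible line. Each probe set on the array is a group of short probes designed mostly from bread wheat transcripts. A transcript of wild emmer that differs in sequence under those probes hybridises more weakly, so a lower signal in 1 genotype can reflect less RNA or a poorer match. Sequence and expression cannot be told apart between genotypes here.

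The deposited values are a score on a log-like scale of unstated base, centring and scaling. Differences are therefore given as Y12-3 minus A24-39 in deposited units. A difference of 1 unit would be a ratio of 2.72 if the logarithm is natural and of 2 if it is log2, provided that no scaling followed. A probe set counted as detected on an array when it was brighter than the brightest of 23 control probe sets with no wheat target on that array. By this measure, between 33.0% and 47.8% of probe sets were detected on the 6 well-watered arrays. As a measure of labelling, the 3′ probe set of the spike-in dap exceeded its 5′ probe set by 1.25 ± 0.20 units in Y12-3 and by 1.15 ± 0.13 in A24-39 (SD over 3 arrays). A two-sided exact permutation test of this difference gave p = 0.6, where 3 against 3 arrays cannot give a p below 0.1. The dap value ran from 1.02 to 1.36 units on the 6 well-watered arrays and from 0.80 to 1.01 on the 6 stressed arrays.

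Before the results, 3 arrays need description. The third arrays of both genotypes stood apart from the other arrays of their group. Across all probe sets, the first and second arrays correlated with each other at 0.990 in Y12-3 and 0.990 in A24-39. The third array correlated with the other Y12-3 arrays at 0.973 and 0.973, and with the other A24-39 arrays at 0.972 and 0.968. The second A24-39 array correlated with the second Y12-3 array at 0.980, above its correlation with the third array of its own genotype.

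The second well-watered A24-39 array also lay between the genotypes where they differed most. This was measured on probe sets chosen from the stressed arrays alone. In stressed roots, 383 probe sets differed by at least 1 unit between the genotypes. On a scale where 0 is the stressed A24-39 mean and 1 the stressed Y12-3 mean, the medians of these 383 were 0.99, 0.97 and 1.01 on the well-watered Y12-3 arrays. They were 0.07, 0.30 and -0.09 on the well-watered A24-39 arrays. The second array was displaced in both directions. Its median was 0.35 over the 195 probe sets higher in stressed Y12-3 and 0.23 over the 188 lower ones, against 0.05 and 0.09 on the first array and -0.14 and 0.10 on the third.

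The displacement was also seen in signal that was present in stressed Y12-3 alone. In stressed roots, 63 probe sets were at least 0.5 unit above the control bound on all 3 Y12-3 arrays and below it on all 3 A24-39 arrays. On the well-watered Y12-3 arrays 60, 57 and 62 of them were detected. On the well-watered A24-39 arrays 7, 34 and 2 were detected, with median signals of -0.36, -0.09 and -0.51. The second array thus gave faint signal for many probe sets that the first and the third A24-39 arrays did not detect. Of the 68 probe sets that were A24-39-only by the mirrored rule, 4, 4 and 10 were detected on the well-watered Y12-3 arrays and 68, 67 and 67 on the A24-39 arrays. The cause was not tested. The sizes of the single-genotype classes, and their recurrence in stressed roots, are given below with and without the second A24-39 array.

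**Figure D1:**
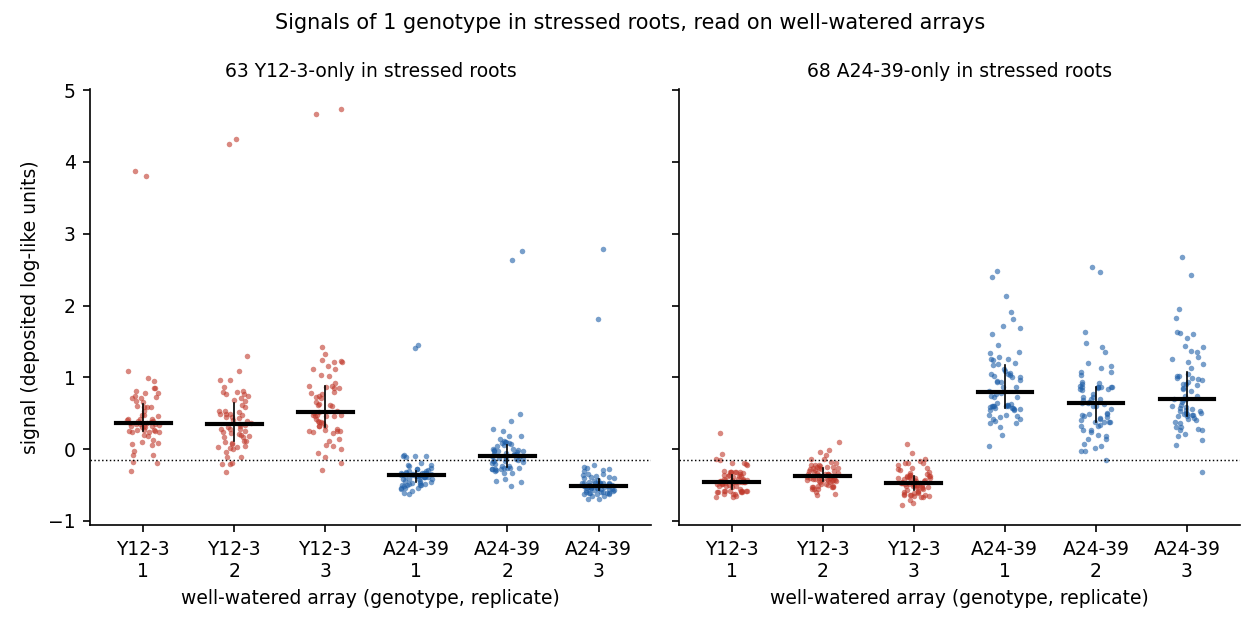
Signal in deposited log-like units (vertical axis) on the 6 well-watered arrays (horizontal axis) of the 63 probe sets that were Y12-3-only and the 68 that were A24-39-only on the stressed arrays, at least 0.5 above the control bound. Each point is a probe set, thick lines are medians, thin lines run between the quartiles and the dotted line is the fixed control bound of -0.15; in the Y12-3-only panel the second A24-39 array has a median of -0.09 against -0.36 and -0.51 on the other A24-39 arrays.

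Across the whole array, 3230 of 61179 probe sets differed between the well-watered genotypes (limma, adjusted p under 0.05), which is 5.28%. Of these, 1711 were higher in Y12-3 (2.80%) and 1519 were higher in A24-39 (2.48%). The values of the 3 arrays of each genotype did not overlap for 17.2% of all probe sets, with Y12-3 higher for 8.43% and lower for 8.79%. The count of differing probe sets was most sensitive to the first A24-39 array, without which it was 1915. The main fit takes 1 spread per probe set over all 12 arrays, so its SEs in well-watered roots also rest on the stressed arrays. Arrays within a well-watered group correlated at 0.968 to 0.990, and within a stressed group at 0.981 to 0.991. The count was 1473 when the fit used the 6 well-watered arrays alone, which called 1399 of the 3230 (43.3%). Which direction held more probe sets depended on the fit. Y12-3 was higher for 661 and lower for 812 on those 6 arrays, higher for 1927 and lower for 2028 with the replicate block, and higher for 1473 and lower for 1554 when arrays were centred on their medians.

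The tested probe sets fell into 5 classes by detection on the 6 well-watered arrays. Neither genotype gave signal above control on any array for 30829 probe sets (50.4%). Both genotypes gave signal on all 6 arrays for 18110 (29.6%). Signal was present on 3 of 3 arrays of Y12-3 and 0 of 3 of A24-39 for 644 probe sets, and the other way round for 218. The remaining 11378 (18.6%) were detected on some arrays of a genotype and not on others. Because a class is set by the same values as the difference, its counts are a description.

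Most of the differing probe sets carried differences of degree or mixed detection. Both-detected probe sets made up 1297 of the 3230, mixed ones 995, single-genotype ones 528 and undetected ones 410. The 410 were 1.33% of their class and none of them reached 0.5 unit, the largest difference being 0.48. In the mixed class 649 were higher in Y12-3 and 346 lower.

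**Figure D2:**
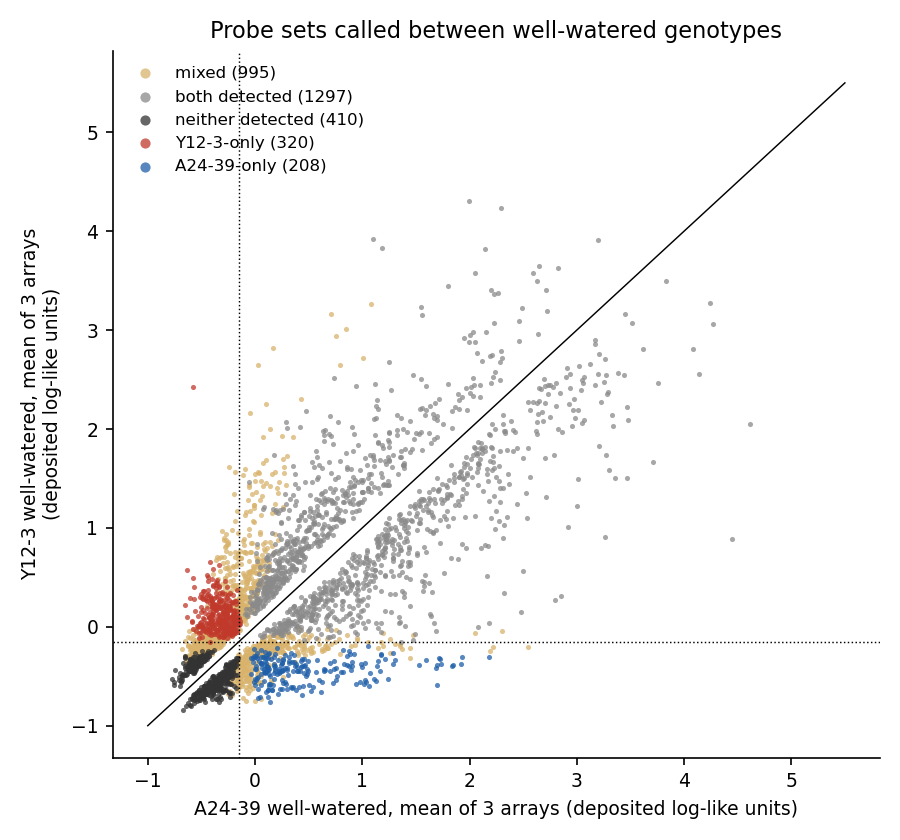
Mean signal in well-watered Y12-3 (vertical axis) against mean signal in well-watered A24-39 (horizontal axis), both in deposited log-like units, for the 3230 probe sets that differed, coloured by detection class. The solid line marks equal signal and the dotted lines the fixed control bound of -0.15; A24-39-only points reach further from the line of equal signal than most Y12-3-only points.

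Under the arrays' own control bounds, Y12-3-only signal was mostly faint. Of the 644 probe sets in this class, 320 passed the test, all higher in Y12-3, with a median difference of 0.42 unit and a largest of 3.01. The dimmest Y12-3 array exceeded its control bound by a median of only 0.05 unit, and for 440 of the 644 by less than 0.1. The difference reached 1 unit for 4 of the 320. Y12-3 was at least 0.5 unit above its bound on all 3 arrays for 6 of the 644.

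A24-39-only signal was found for fewer probe sets and lay further above control. Of the 218 probe sets in this class, 208 passed the test, with a median difference of -0.78 unit and a largest size of 2.48. The dimmest A24-39 array exceeded its bound by a median of 0.23 unit, and for 55 of the 218 by less than 0.1. The difference reached 1 unit for 71 of the 208. A24-39 was at least 0.5 unit above its bound on all 3 arrays for 66 of the 218.

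The contrast between the 2 single-genotype classes depended on which arrays and which bound were used. Without the second A24-39 array, 885 probe sets were Y12-3-only and 263 A24-39-only. With a margin of 0.5 unit above the bound and without that array, the counts were 70 and 77, against 6 and 66 with it. Leaving out any array loosens the rule, but at this margin the Y12-3-only count was 6 without the first A24-39 array, 6 without the third, and 7, 28 and 8 without the first, the second and the third Y12-3 array. Of the Y12-3-only probe sets that passed the test without it, 48 reached 1 unit, against 4 with it, and of the A24-39-only ones 74 did, against 71. Without the second Y12-3 array the Y12-3-only class held 1518 probe sets, and without the third Y12-3 array the A24-39-only class held 379. The control bounds themselves differed between arrays, at -0.17, -0.09 and -0.27 in Y12-3 and -0.15, -0.11 and -0.06 in A24-39. When 1 fixed bound of -0.15, the brightest control by its mean over arrays, replaced them, 402 probe sets were Y12-3-only and 414 A24-39-only. Without the second A24-39 array, the fixed bound gave 651 and 591, so which class was the larger under it depended on that array. With the fixed bound and the margin of 0.5 unit the counts were 5 and 84, and without the second A24-39 array 70 and 104.

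The mixed class showed the same array from the other side. Among its probe sets that were higher in Y12-3, 338 were detected on all 3 Y12-3 arrays. For 116 of these the second array was the lone A24-39 array with signal, for 20 it was the first and for 0 the third. Of the 338, 78 differed by at least 1 unit, and for 28 of those the second was the lone A24-39 array with signal. In the opposite direction, 186 mixed probe sets were detected on all 3 A24-39 arrays, and for 97 the third Y12-3 array, which had the lowest control bound, was the lone Y12-3 array with signal.

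**Figure D3:**
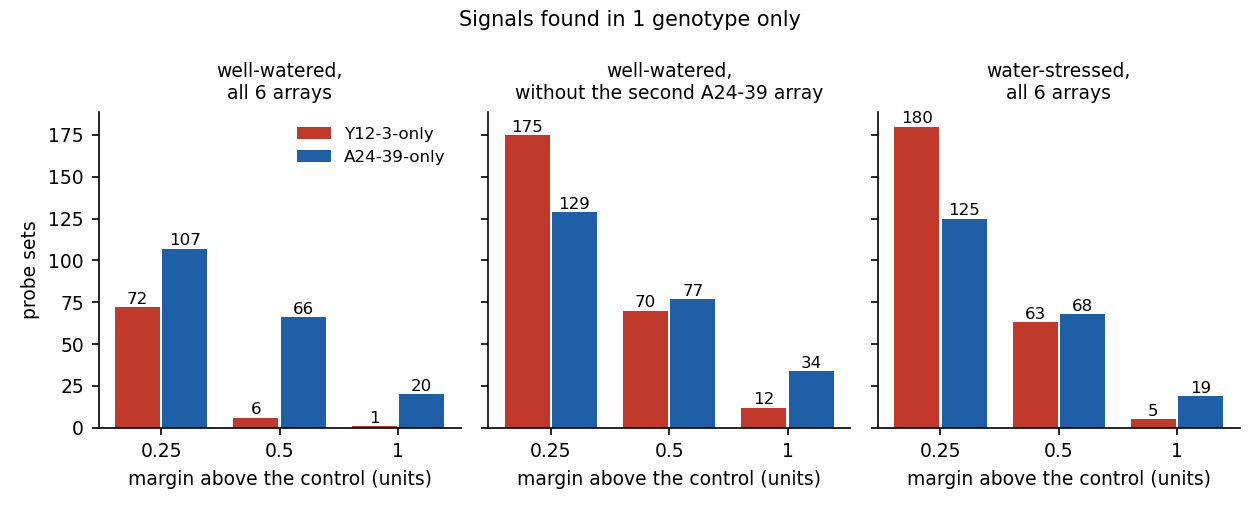
Number of probe sets with signal in 1 genotype alone (vertical axis) as the required margin rises (horizontal axis, deposited log-like units above the bound on each array of that genotype), for the 6 well-watered arrays, the same without the second A24-39 array, and the 6 stressed arrays. At a margin of 0.5 the Y12-3-only and A24-39-only counts are 6 and 66 with all well-watered arrays, 70 and 77 without the second A24-39 array, and 63 and 68 on the stressed arrays.

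Few of the single-genotype probe sets had a gene symbol. The array annotation gave 1 symbol to 1273 of the tested probe sets, and all but 19 of these carry a placeholder (LOC and a number) with no description, so no role is stated for them. Of the 320 Y12-3-only probe sets that differed, 1 had a symbol, and of the 208 A24-39-only ones, 3 did. A difference in these classes has a lower bound, which is the mean of the genotype with signal minus the mean control bound of the other genotype's arrays. In every class, the largest differences with a symbol were named only where the arrays of the genotypes did not overlap. Non-overlap is therefore not a result for them.

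The Y12-3-only gene was LOC542800. Its signals were -0.14, -0.05 and -0.10 in Y12-3 and -0.30, -0.32 and -0.26 in A24-39. The Y12-3 arrays sat just above the control bound and all A24-39 arrays below it. The measured difference was 0.20 ± 0.03 (SE; limma adjusted p = 0.00532), and the bound was at least 0.01 unit. In stressed roots neither genotype gave signal for it, and the call was absent when the 6 well-watered arrays were fitted alone (adjusted p = 0.0656).

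Of the unnamed probe sets, Ta.5252.1.S1_at had the largest Y12-3-only difference. Its signals were 2.98, 1.85 and 2.45 in Y12-3 and -0.66, -0.51 and -0.57 in A24-39. All 3 Y12-3 arrays were bright and all 3 A24-39 arrays below control. The difference was at least 2.53 units, with a measured value of 3.01 ± 0.21 (limma adjusted p = 3.63e-05). In stressed roots both genotypes were below control, at -0.46 ± 0.15 and -0.55 ± 0.03 (SD, n = 3). This signal was therefore detected in well-watered Y12-3 and in none of the other 3 groups.

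LOC543146 was the A24-39-only gene with the largest difference. Its signals were -0.36, -0.36 and -0.32 in Y12-3 and 0.61, 0.36 and 0.51 in A24-39. The A24-39 arrays were all above control and the Y12-3 arrays all below. The difference was at least 0.67 unit in favour of A24-39, with a measured value of -0.84 ± 0.06 (limma adjusted p = 3.89e-05). In stressed roots neither genotype gave signal above control, and the difference was -0.16 ± 0.05 (adjusted p = 0.0844).

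LOC542821 was A24-39-only under both waterings. Its well-watered signals were -0.43, -0.39 and -0.54 in Y12-3 and 0.39, 0.07 and 0.25 in A24-39. The second A24-39 array was the lowest of its group. The difference was at least 0.42 unit, with a measured value of -0.69 ± 0.08 (limma adjusted p = 0.000506), and -0.55 ± 0.05 on the stressed arrays (adjusted p = 0.00235).

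LOC606363 had signals of -0.45, -0.46 and -0.33 in Y12-3 and 0.24, -0.05 and 0.01 in A24-39. The difference was at least 0.24 unit, with a measured value of -0.48 ± 0.07 (limma adjusted p = 0.00335). A separate probe set for the same symbol was below control on all 6 arrays and differed by 0.02 ± 0.03 (adjusted p = 0.833). The gene's A24-39-only signal thus came from 1 of its 2 probe sets.

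Ta.5471.1.S1_a_at, which has no symbol, had the largest A24-39-only difference. Its signals were -0.32, -0.13 and -0.46 in Y12-3 and 2.40, 2.54 and 1.60 in A24-39. All A24-39 arrays were bright and no Y12-3 array was detected. The difference was at least 2.36 units, with a measured value of -2.48 ± 0.21 (limma adjusted p = 8.73e-05). In stressed roots it was again A24-39-only, at -1.27 ± 0.10 (adjusted p = 0.00121).

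Differences of degree occurred in both directions. Of the 18110 both-detected probe sets, 1297 passed the test (7.16%, against 5.28% of all probe sets), 608 higher in Y12-3 and 689 higher in A24-39. The median difference was 0.41 unit for the former and -0.43 for the latter, and 51 and 81 of them reached 1 unit. With the replicate number as a block within each watering regime the count was 2118, with 927 higher and 1191 lower. The split leaned further to A24-39 on the 6 well-watered arrays alone (216 higher, 364 lower) and without the third array of each genotype (386 and 641). Without the first A24-39 array it was 681 and without the second Y12-3 array 853.

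The share of both-detected probe sets that differed varied with signal level. Over 4 groups of equal size by mean signal, it was 3.67% in the dimmest, 7.80% and 9.21% in the middle groups and 7.97% in the brightest. The median size of these differences was 0.25 unit in the dimmest group, and 0.38, 0.50 and 0.55 in the brighter ones. The median SE was 0.0566 unit in the dimmest and 0.114 in the brightest group. Among the brightest, 135 probe sets were higher in Y12-3 and 226 in A24-39, whereas the group just below them held 206 and 211. Among both-detected probe sets, 7.91% of those named Ta and 4.85% of those named TaAffx differed.

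Probe sets for related sequences did not always move together. By the cluster number in their names, 6909 families held probe sets for at least 2 sequences, and 883 of these had a probe set that differed. In 193 families probe sets of at least 2 sequences differed. All were higher in Y12-3 in 94 of the 193, all were higher in A24-39 in 72, and both directions occurred in 27. These counts are a description. They were not set against numbers expected from the 5.28% of all probe sets that differed, 1711 higher in Y12-3 and 1519 lower.

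LOC606308 had the largest difference of degree in favour of Y12-3 among genes with a symbol. Its signals were 3.70, 3.95 and 4.10 in Y12-3 and 0.85, 1.71 and 0.73 in A24-39. Every Y12-3 array was far above every A24-39 array, and the second A24-39 array was the highest of its group. The difference was 2.82 ± 0.22 units (limma adjusted p = 6.13e-05), a ratio of 16.8 if the logarithm is natural and 7.06 if it is log2. Its other probe set, for the same sequence by its name, gave 2.66 ± 0.20 (adjusted p = 4.51e-05). In stressed roots the difference was in the same direction, at 1.29 ± 0.11 (adjusted p = 0.00163), with lower signal in both genotypes.

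LOC542869 also differed by both of its probe sets, which by their names are for the same sequence. The first gave 1.09, 1.14 and 1.07 in Y12-3 and 0.29, 0.66 and -0.04 in A24-39. The Y12-3 arrays lay close together, while the A24-39 arrays were spread, with the second highest. The difference was 0.80 ± 0.14 (limma adjusted p = 0.0075), and 0.67 ± 0.11 by the other probe set (adjusted p = 0.00621). The stressed arrays gave 0.93 ± 0.07 (adjusted p = 0.00115). The call was lost with the 6 well-watered arrays fitted alone (adjusted p = 0.0704).

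THI1.1, a gene of the thionins, small cysteine-rich proteins that act against microbes, was higher in well-watered Y12-3. Its both-detected probe set gave 0.49, 0.94 and 0.74 in Y12-3 and 0.11, 0.10 and 0.16 in A24-39. The lowest Y12-3 array was well above the highest A24-39 array. The difference was 0.60 ± 0.08 (limma adjusted p = 0.0021). The other probe set, for the same sequence by its name, gave 0.45 ± 0.12 (adjusted p = 0.0608). In stressed roots the first probe set was at 0.01 ± 0.02 in Y12-3 and 0.05 ± 0.03 in A24-39 (SD, n = 3), a difference of -0.05 ± 0.03 (adjusted p = 0.321). The difference between the waterings did not pass the interaction test (0.65 ± 0.12, adjusted p = 0.112).

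Both genes with probe sets that differed in opposite directions were among those named. For LOC100037659, the probe set Ta.5480.1.S1_x_at gave 1.98, 2.10 and 2.27 in Y12-3 and 0.90, 1.45 and 1.02 in A24-39, a difference of 0.99 ± 0.13 (limma adjusted p = 0.00111). The probe set TaAffx.86552.1.S1_x_at of the same symbol gave 0.59, 0.48 and 0.70 in Y12-3 and 0.95, 1.03 and 1.16 in A24-39, a difference of -0.46 ± 0.07 (adjusted p = 0.00303). The genotypes did not overlap in TaAffx.86552.1.S1_x_at, and non-overlap was required of Ta.5480.1.S1_x_at by the naming rule. The stressed arrays gave the same opposite signs, at 0.69 ± 0.06 and -0.40 ± 0.05. Its other probe set gave 0.21 ± 0.05 and did not pass (adjusted p = 0.0572), but passed with the replicate block (adjusted p = 0.015).

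For LOC100037594, the probe set Ta.5335.3.S1_a_at was higher in Y12-3, with 1.52, 1.67 and 1.48 against 1.31, 1.27 and 0.93 in A24-39 (0.39 ± 0.10, limma adjusted p = 0.0439). The other 2 probe sets, by their names for the same sequence, were lower in Y12-3, by -0.39 ± 0.08 (adjusted p = 0.0144) and -0.34 ± 0.05 (adjusted p = 0.00215). All 3 kept their sign on the stressed arrays, where they gave 0.49, -0.37 and -0.35 and passed the test. No gene-level direction can be given for either symbol. The higher call of LOC100037594 was lost under 10 of 17 alternatives, and its lower call of -0.39 under 5 of 17.

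LOC780664 had the smallest difference of the 6 genes named in this direction. Its signals were 0.66, 0.78 and 0.78 in Y12-3 and 0.51, 0.49 and 0.32 in A24-39, a difference of 0.30 ± 0.08 (limma adjusted p = 0.0478). The call lay at the threshold and was lost under 15 of 17 alternatives. Its other 3 probe sets differed by 0.31, 0.21 and 0.21 and did not pass.

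Ta.8304.1.S1_x_at, with no symbol, was the both-detected probe set furthest higher in Y12-3 among those without a symbol. Its signals were 3.87, 4.31 and 4.74 in Y12-3 and 1.41, 2.76 and 1.82 in A24-39. The second A24-39 array was the highest of its group and still below every Y12-3 array. The difference was 2.31 ± 0.31 (limma adjusted p = 0.00162), and 2.69 ± 0.24 without the second A24-39 array. In stressed roots this probe set was Y12-3-only, so its class and not its direction changed with watering.

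**Figure D4:**
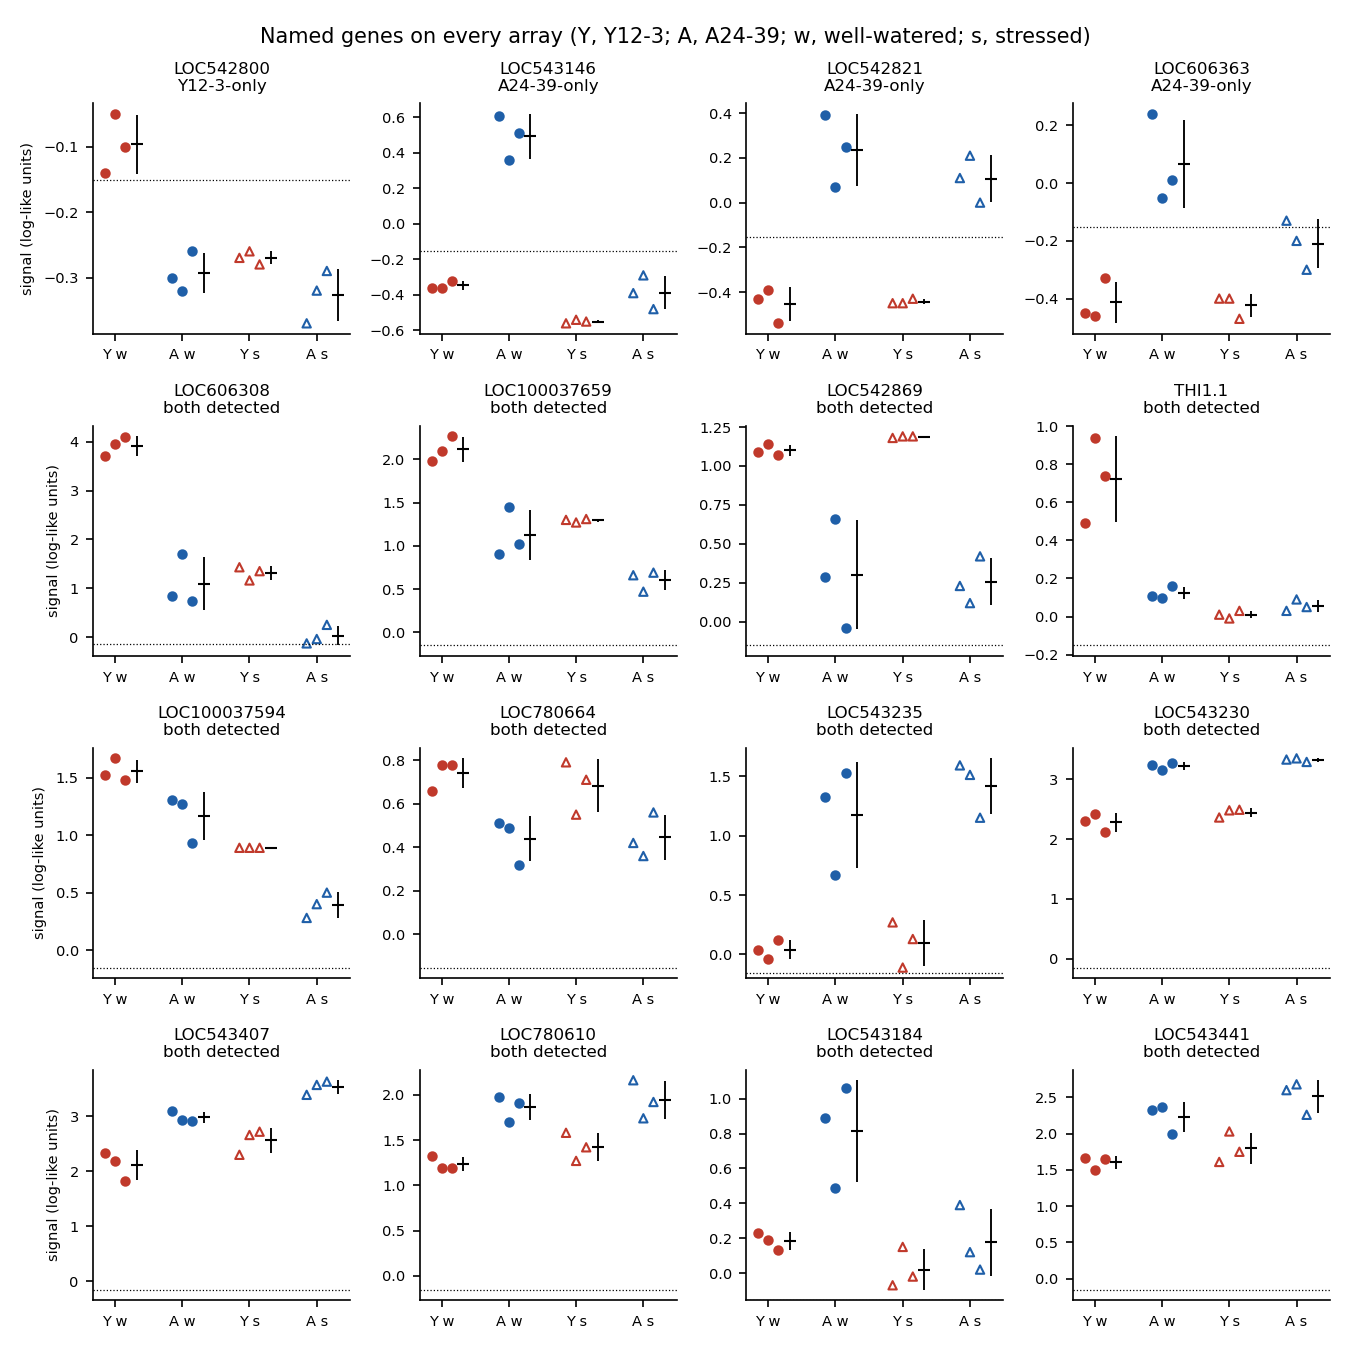
Signal in deposited log-like units (vertical axis) on every array for 16 genes with a symbol, by group (horizontal axis: Y12-3 and A24-39, well-watered as filled circles and stressed as open triangles). Crosses and bars are means and SDs over 3 arrays and the dotted line is the fixed control bound of -0.15; LOC543146 and THI1.1 differ between the well-watered groups and lie close together when stressed, whereas LOC543230 and LOC543235 differ under both waterings.

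In the opposite direction, LOC543235 had the largest difference of degree among genes with a symbol. Its signals were 0.04, -0.04 and 0.12 in Y12-3 and 1.32, 0.67 and 1.53 in A24-39. The second A24-39 array was the lowest of its group and the closest to Y12-3. The difference was -1.13 ± 0.20 units (limma adjusted p = 0.0071), and -1.39 ± 0.14 without that array. The stressed arrays gave -1.32 ± 0.14 (adjusted p = 0.00313). With the 6 well-watered arrays fitted alone the call was lost (adjusted p = 0.0512).

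LOC543230 was bright in both genotypes. Its signals were 2.30, 2.42 and 2.11 in Y12-3 and 3.24, 3.15 and 3.28 in A24-39. The groups were separated by far more than the spread within either. The difference was -0.95 ± 0.07 (limma adjusted p = 4.51e-05), and -0.88 ± 0.04 in stressed roots (adjusted p = 0.00043).

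LOC543407 gave 2.34, 2.18 and 1.82 in Y12-3 and 3.10, 2.94 and 2.91 in A24-39, a difference of -0.87 ± 0.14 (limma adjusted p = 0.00432). Its other probe set, for the same sequence by its name, differed by -0.22 ± 0.09 and did not pass (adjusted p = 0.259). On the stressed arrays both passed, at -0.97 and -0.55. For the other probe set the difference between the waterings did not pass the interaction test (0.32 ± 0.13, limma adjusted p = 0.547). LOC780610 gave 1.32, 1.19 and 1.19 in Y12-3 and 1.98, 1.70 and 1.91 in A24-39, a difference of -0.63 ± 0.11 (adjusted p = 0.00774), and -0.52 ± 0.12 in stressed roots (adjusted p = 0.0439). Non-overlap between the genotypes was required of the named probe set of each gene.

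LOC543184 and LOC543441 had calls that did not hold when some single arrays were left out. For LOC543184 the signals were 0.23, 0.19 and 0.13 in Y12-3 and 0.89, 0.49 and 1.06 in A24-39, a difference of -0.63 ± 0.13 (limma adjusted p = 0.021). The call was lost under 8 of 17 alternatives. Of its other 6 probe sets, 1 passed, at -0.46 ± 0.12 (adjusted p = 0.0493), and lost its call under 10 of 17. The remaining 5 did not pass and ranged from -0.70 ± 0.24 in the brightest (adjusted p = 0.16) to 0.01 ± 0.04. On the stressed arrays the probe sets that passed gave -0.16 ± 0.10 and -0.17 ± 0.12 (adjusted p = 0.337 and 0.38). Neither passed the interaction test (-0.47 ± 0.19 and -0.29 ± 0.17, limma adjusted p = 0.551 and 0.685). For LOC543441 the signals were 1.66, 1.50 and 1.65 in Y12-3 and 2.32, 2.37 and 1.99 in A24-39, a difference of -0.62 ± 0.14 (adjusted p = 0.0264). Without the second A24-39 array it was -0.55 ± 0.15 and no longer passed (adjusted p = 0.0775). Its call was lost under 5 of 17 alternatives in all.

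Ta.27457.5.S1_x_at, with no symbol, had the largest difference of degree in either direction. Its signals were 1.09, 1.33 and 0.26 in Y12-3 and 4.51, 4.22 and 4.63 in A24-39. The third Y12-3 array was the dimmest, and every A24-39 array was far above every Y12-3 array. The difference was -3.56 ± 0.27 (limma adjusted p = 4.51e-05), which means A24-39 over Y12-3 by a ratio of 35.1 if the logarithm is natural and 11.8 if it is log2. The stressed arrays gave -3.07 ± 0.20 (adjusted p = 0.000703).

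Few probe sets carried a descriptive symbol. Of the 19 with a symbol other than a LOC placeholder, 1 was called higher and 2 lower, beside 2.80% and 2.48% of all probe sets. The higher one was THI1.1, and the lower ones were TBP1 and TUBA. TBP1, the TATA-binding protein of the basal transcription machinery, gave 0.76, 0.80 and 0.96 in Y12-3 and 1.24, 1.10 and 1.06 in A24-39. The groups did not overlap, and the difference was -0.29 ± 0.07 (limma adjusted p = 0.0411). With the replicate block it no longer passed (adjusted p = 0.0558), and without the second A24-39 array it did not either (adjusted p = 0.0651).

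TUBA encodes alpha-tubulin, a subunit of microtubules. Its probe set Ta.723.1.S1_at gave -0.43, -0.37 and -0.45 in Y12-3 and -0.12, -0.12 and -0.06 in A24-39. Y12-3 was below control on all arrays and A24-39 was above it on 1 of 3. The difference was -0.31 ± 0.03 (limma adjusted p = 0.000409). The other TUBA probe set was among the bright ones, at 4.31 ± 0.29 in Y12-3 and 4.48 ± 0.20 in A24-39 (SD, n = 3), and differed by -0.16 ± 0.14 (adjusted p = 0.678). On the stressed arrays that bright probe set was lower in Y12-3, at -0.66 ± 0.06 (adjusted p = 0.00185). Its difference between the waterings did not pass the interaction test (0.50 ± 0.19, limma adjusted p = 0.526).

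SAHH, S-adenosylhomocysteine hydrolase of the methyl cycle, was bright by both of its probe sets and did not pass. Their differences were -0.33 ± 0.17 and -0.35 ± 0.17 (limma adjusted p = 0.425 and 0.354), with overlap between the genotypes. The third Y12-3 array was the dimmest in both. On the stressed arrays both passed, at -0.61 ± 0.05 and -0.60 ± 0.09. The differences between the waterings did not pass the interaction test (0.29 ± 0.24 and 0.25 ± 0.24, limma adjusted p = 0.8 and 0.819).

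The lists by function held few members on this annotation, too few to set against the 2.80% higher and 2.48% lower among all probe sets. Of water-stress proteins, 1 probe set matched, COR410, a dehydrin of wheat, with 0.05 ± 0.06 (limma adjusted p = 0.794) and signal above control on 1 of 6 well-watered arrays. Of 3 probe sets for growth and the cell wall, 1 was lower and 0 higher. The remaining member of that list, XTH, a xyloglucan endotransglucosylase of the cell wall, gave -0.06 ± 0.17 (adjusted p = 0.936). Of 3 defence probe sets, 1 was higher and 0 lower. Both CAT1 probe sets, for the antioxidant enzyme catalase, were below control on all 6 arrays. Shoot markers were represented by FBP and petC, of which 0 of 4 probe sets passed and 3 of 4 were below control on all 6 arrays. The values of FBP and petC differed by between -0.08 and 0.03 unit. No root marker matched a symbol, so the tissue label was not checked against root genes.

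The water-stressed arrays gave a separate set of values for the same genotype difference, fitted on those 6 arrays alone. The spread behind the well-watered calls was estimated over all 12 arrays, so their share is not on the same footing as the stressed share. That spread includes the stressed arrays, so the recurrence of these calls in stressed roots is not independent of how they were selected. The 6 well-watered arrays fitted alone gave 1473 calls, whose recurrence is not given here. In stressed roots 7474 of 61179 probe sets differed (12.2%), 4712 higher in Y12-3 (7.70%) and 2762 higher in A24-39 (4.51%). Of the 3230 well-watered differences, 2189 were called in the same direction there. Among the 57949 probe sets that did not differ when well-watered, 9.11% were called in stressed roots in either direction.

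Signal in A24-39 alone often recurred in stressed roots. Of the 208 A24-39-only differences, 179 (86.1%) were called in the same direction on the stressed arrays and 207 had the same sign, with a median of -0.68. Of the 71 that reached 1 unit, 64 were called. By detection, 141 of the 208 were A24-39-only again, 23 were below control in both genotypes and 5 were detected in both. Y12-3 was above control on 0 of 3 stressed arrays for 176 of them.

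Of the 320 Y12-3-only differences, 232 (72.5%) were called in the same direction on the stressed arrays and 288 had the same sign, with a median of 0.36. By detection, 185 were Y12-3-only again, 62 were below control in both genotypes and 12 were detected in both. A24-39 was above control on 0 of 3 stressed arrays for 271 of them. Of the 4 that reached 1 unit, 0 were called when stressed. Without the second A24-39 array, 337 of 425 such differences (79.3%) were called in the same direction, and for A24-39-only signal 197 of 245 (80.4%). The shares of the classes were not tested against each other.

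Differences of degree recurred for 403 of 608 probe sets higher in Y12-3 (66.3%) and for 406 of 689 higher in A24-39 (58.9%). Of those that reached 1 unit, 32 of 51 and 65 of 81 were called in the same direction. Calls in the opposite direction occurred for 4 and 2 probe sets, and none occurred in the single-genotype classes. The classes also differ in the size of their differences.

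**Figure D5:**
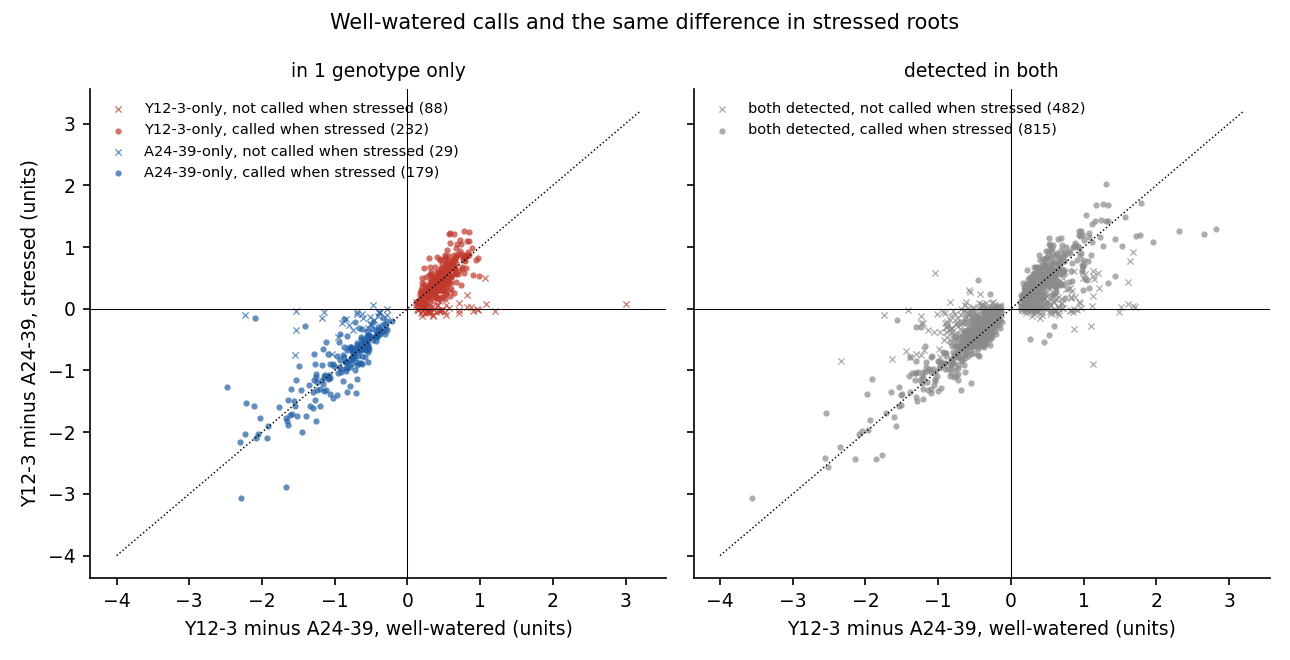
Genotype difference (Y12-3 minus A24-39, deposited log-like units) in stressed roots (vertical axis) against that in well-watered roots (horizontal axis) for the single-genotype and both-detected probe sets that differed when well-watered. Circles passed the test in stressed roots and crosses did not, and the dotted diagonal marks equal differences; most points beyond -1 lie below 0 on both axes, while Ta.5252.1.S1_at at 3.01 falls to 0.08.

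The difference between the well-watered and the stressed genotype difference was tested for every probe set as an interaction. It passed for 52 of 61179 (0.0850%), of which 19 (0.0311%) had a higher value when well-watered and 33 (0.0539%) a lower one, and 5095 had an unadjusted p under 0.05. Of the 52, 36 also differed when well-watered, and 16 of those were single-genotype signals. The count was 154 with the replicate block, 625 without the third well-watered Y12-3 array and 23 without the first stressed A24-39 array. Leaving out 1 array moved this count by over 1.5 times for every array except the second well-watered A24-39 array, without which it was 64. Among the named genes and probe sets, Ta.5252.1.S1_at (2.92 ± 0.30, limma adjusted p = 0.00719) and LOC543146 (-0.68 ± 0.09, adjusted p = 0.0253) passed.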

How the data were processed

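The values are a deposited score, which the authors made with RMA, per the submitters' processing notes. RMA corrects background, normalizes arrays and summarises the probes of a set. No version is given, and the log base is not known. No transformation was added. The 111 control probe sets were left out of 61290, which left 61179. The members, gene lists and alternatives were chosen with earlier results of these data known.

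Genotypes were compared with limma (version 3.58.1, R 4.3.3). A model with a mean for each of 4 groups was fitted to the 12 arrays (8 residual degrees of freedom), and p-values were adjusted by Benjamini-Hochberg across the 61179 probe sets, with 0.05 as the threshold. The error given with a difference is its moderated SE, and that with a mean is the SD of 3 arrays. Precision is limited by the number of arrays. The stressed difference was fitted on the 6 stressed arrays alone. The procedure was tested on simulated data. Tables were made with Python 3.11.15 and pandas 2.3.3.

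Genes were named by a rule. It took the 6 largest differences per class among probe sets that differed, had exactly 1 symbol and did not overlap between genotypes, with 1 probe set per gene, and 1 probe set without a symbol per class. It added every symbol not beginning with LOC, up to 4 genes called in both directions, and up to 4 with 3 or more probe sets all called one way, of which there were 0. The named non-LOC genes TTHV, PFK, GAPN and THI1.2 did not pass, with differences between -0.22 and -0.01 unit. The lists were water-stress proteins, growth and cell wall, antioxidants, defence, transport, and shoot and root markers; the transport and root lists matched 0 symbols. The RefSeq table of WEW_v2.1 held 0 of the array's gene identifiers, and sequences of the probe sets were not used here.

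The replicate numbers in the labels were treated as pairs only in the alternatives with a replicate block. The main fits did not use them. Arrays of the same number deviated together from their group means, with correlations between 0.197 and 0.278 in well-watered roots and between 0.170 and 0.575 in stressed roots, each above 0.1. Those of different numbers gave between -0.189 and -0.0168 in well-watered roots and between -0.509 and 0.175 in stressed roots. The highest of these stressed values, 0.175, was above the lowest same-number value, 0.170. Where the block within each watering regime changed a call or moved a count by over 1.5 times, its value stands beside the result.

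Alternatives covered the arrays fitted, the replicate block, normalization and centring, a filter on dim probe sets, array weights, the prior, the dap difference as a covariate, each array left out, and the detection rule. A further 3 were chosen after seeing the data. These left out the third array of both genotypes, used 1 fixed control bound, or combined the margin of 0.5 with leaving out the second A24-39 array.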

Additional observations from a re-analysis of the deposited data

Results flagged for a closer look

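The genotype difference of 2 named items differed between well-watered and stressed roots by the interaction test. Ta.5252.1.S1_at had a difference of 3.01 ± 0.21 units in well-watered roots and 0.08 ± 0.08 in stressed roots, and these differed by 2.92 ± 0.30 (SE; limma adjusted p = 0.00719). All 3 well-watered Y12-3 arrays were above control, and all 9 other arrays were below it. LOC543146 had a difference of -0.84 ± 0.06 units in well-watered roots and -0.16 ± 0.05 in stressed roots, and these differed by -0.68 ± 0.09 (adjusted p = 0.0253). All 3 well-watered A24-39 arrays were above control and the other 3 groups were not. The cause was not tested in either case.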

How the results depend on the processing

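No named probe set that differed changed sign under any of the 17 alternatives, and 16 of the 28 that differed kept their call under each alternative that tested them (TUBA was not tested under the filter on dim probe sets). The count of 3230 was 1473 with the 6 well-watered arrays alone and 1893 centred on spike-in controls. With 1 array left out it was between 1915 and 3585. It was 3955 with the replicate block, 1900 with the block on 6 arrays and 4170 with the dap difference as a covariate. Differences of degree, 1297, numbered 580 on 6 arrays, 2118 with the block, 861 centred on spike-ins and 1779 with the dap covariate. With 1 array left out they numbered between 681 and 1606. The Y12-3-only class of 644 held 2968 probe sets when 2 of 3 arrays sufficed, 6 with a margin of 0.5, 70 with that margin and no second A24-39 array, 402 with a fixed bound, and between 658 and 1518 with 1 array left out. Of them 320 differed, against 579, 6 and 70 under the first 3 of these rules, 191 on 6 arrays, and between 245 and 425 with 1 array left out. The A24-39-only class of 218 held 868, 66, 77 and 414 under the same 4 rules, 664 without the third array of each genotype, and between 223 and 379 with 1 array left out. Of them 208 differed, against 401, 66, 76, 334 and 374, and between 202 and 296 with 1 array left out. The 2189 calls shared with stressed roots were between 1731 and 1986 with 1 stressed array left out, and 2306 with the block. The interaction count of 52 was 154 with the block, 1765 without the third array of each genotype, and between 23 and 625 with 1 array left out. The fits with fewer arrays have fewer residual degrees of freedom, and the fits of the 6 well-watered arrays also leave out the spread of the stressed ones. The cause of the changes in these counts was not tested. Signal near the control bound limits the single-genotype classes.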
